A study of Oryza sativa with 12 samples.

Results

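The comparison described here set embryos of the rice (Oryza sativa) mutant Oslec1 against embryos of its wild type, Nipponbare (NIP), at 7 days after pollination (DAP), the stage called early embryo (EE). It used 6 of the 12 libraries of the study, the 3 labelled Oslec1 EE and the 3 labelled NIP EE, and the other 6 libraries came from the same genotypes at 25 DAP, called late embryo (LE). The mutant was made with CRISPR/Cas9 in the Nipponbare background, and the lines described are homozygous for a small deletion and a small insertion at the guide sites in OsLEC1, which shift the reading frame and bring in a premature stop codon. That stop lies beyond the conserved domain of the protein, so that a shortened protein may still be made. The labels give the genotype as Oslec1 with no line, and the study's text uses more than 1 line name for the embryo data, so that the line sequenced is uncertain. Polyadenylated RNA was taken from embryos, of which about 30 were collected, and the replicates are described as biological. Both genotypes were grown in a greenhouse under the same long-day cycle, and neither group received a treatment.

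LEC1 is a B subunit of the nuclear factor Y complex, a transcription factor complex of plants and animals that binds CCAAT boxes. In Arabidopsis it acts early in the seed and is needed for embryo maturation, the period in which storage reserves are laid down and desiccation tolerance is acquired, and its loss gives seed leaves some traits of true leaves. Photosynthesis genes encode the antenna proteins, reaction centres and electron carriers of the chloroplast. Storage proteins, by contrast, are the main nitrogen reserve of the seed and in cereals are made largely in the endosperm, the tissue next to the embryo.

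Each Oslec1 EE library held 17921460 to 20462664 counts on genes, and each NIP EE library held 16113922 to 19549536. A count was recorded for 28276 to 28841 genes per Oslec1 EE library and for 25593 to 26014 per NIP EE library. Replicates differed by more than sampling noise (chi-square per degree of freedom between pairs 8.33 to 17.7), and the Pearson correlation of log2 CPM across genes was between 0.975 and 0.985 within groups. The files name nuclear protein-coding genes by identifier only, and no sequence or symbol is paired with them in the tables used here. OsLEC1 itself and the embryo, endosperm and seed coat marker genes were therefore not analysed here, and an insertion or deletion of this kind would leave the count of the targeted gene no check of the labels. Functions are given below only for genes that the study's Gene Ontology (GO) lists annotate, for genes of the organelle genomes and for RNA genes with a name in the files. In whole embryos, fewer cells of a type and less RNA per cell cannot be told apart.

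The RNA of NIP EE embryos was concentrated in few genes. The 50 most abundant genes of each library took 19.2%, 19.5% and 18.6% of the counts in the Oslec1 EE libraries and 40.0%, 42.5% and 42.7% in the NIP EE libraries, so that the groups lay far apart. The Wilson intervals (95%) of such shares were at most 0.0483 percentage points wide and cover counting error only. The 4 genes with the highest mean normalized count over the 6 libraries alone took 0.395% to 0.636% of the counts in Oslec1 EE and 22.5% to 25.8% in NIP EE. All 4 were lower in Oslec1 EE, with log2 fold changes between -7.78 and -5.65. Shares computed from FPKM, the length-scaled values of the authors, gave 21.2% in Oslec1 EE and 41.9% in NIP EE for the 50 most abundant genes.

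**Figure D1:**
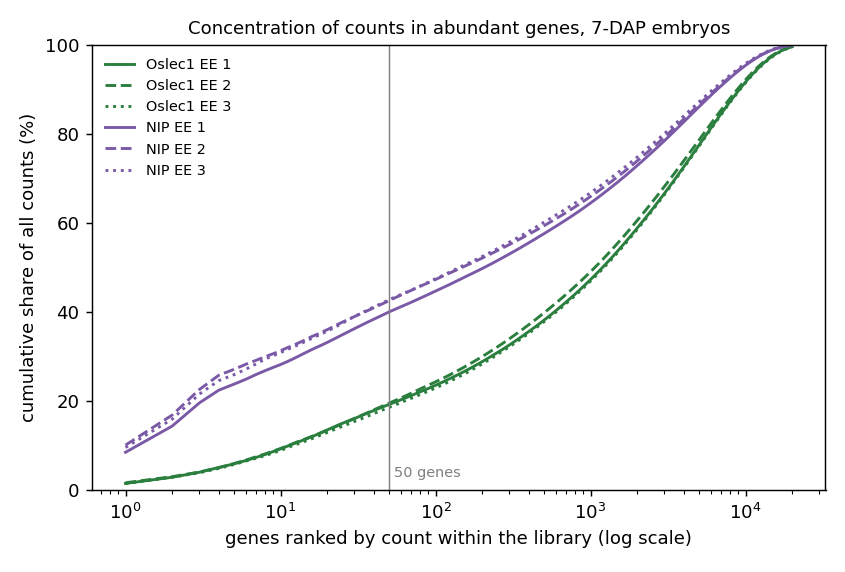
Cumulative share of all counts (vertical axis, %) taken by the genes of each 7-DAP library ranked by count (horizontal axis, log scale), for 3 Oslec1 EE libraries (green) and 3 NIP EE libraries (purple). At 50 genes, marked by the grey line, the Oslec1 EE libraries had reached 18.6% to 19.5% and the NIP EE libraries 40.0% to 42.7%.

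The trimmed mean of M-values (TMM), which sets the scale from the bulk of genes, gave library factors of 1.22 to 1.29 for the Oslec1 EE libraries and 0.756 to 0.824 for the NIP EE libraries. With these factors the 23034 tested genes had a median log2 fold change of 0.03, while scaling by library size alone moved it to 0.70. Normalized counts below are counts divided by the TMM-scaled library size and brought to the mean of the 6 libraries. Shares of counts are not scaled in this way. For genes higher in Oslec1 EE the shares therefore differ more between the groups than the normalized counts do.

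Of the 23034 genes tested, 2515 were called higher in Oslec1 EE, which is 10.9%, and 902 were called lower, which is 3.92%. Calls required a log2 fold change of at least 2 in size and an adjusted p under 0.05 (edgeR quasi-likelihood test, Benjamini-Hochberg over all tested genes). Without the normalization for composition the numbers were 3653 higher and 528 lower, so that 87.4% of the calls were upward, against 73.6% with TMM. The factors of DESeq2 and TMM factors computed without the 50 most abundant genes gave 2514 to 2516 higher and 901 to 903 lower genes. The values of the groups did not overlap for 2510 of the genes called higher and 897 of those called lower, against 64.8% of all tested genes.

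The called genes of the 2 directions differed in abundance. The median gene called higher had 81.2 normalized counts in Oslec1 EE and 5.58 in NIP EE, and 824 of them, 32.8%, had at most 3 counts in every NIP EE library. The median gene called lower had 43.2 normalized counts in Oslec1 EE and 410 in NIP EE, and 36 of them, 3.99%, had at most 3 counts in every Oslec1 EE library. The genes called higher took 13.6% to 14.2% of the counts in Oslec1 EE and 0.911% to 1.14% in NIP EE. The genes called lower took 2.64% to 3.30% of the counts in Oslec1 EE and 38.6% to 41.0% in NIP EE. Of the 50 genes with the highest mean over the 6 libraries, 10 were called higher, 21 were called lower and 19 were not called.

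**Figure D2:**
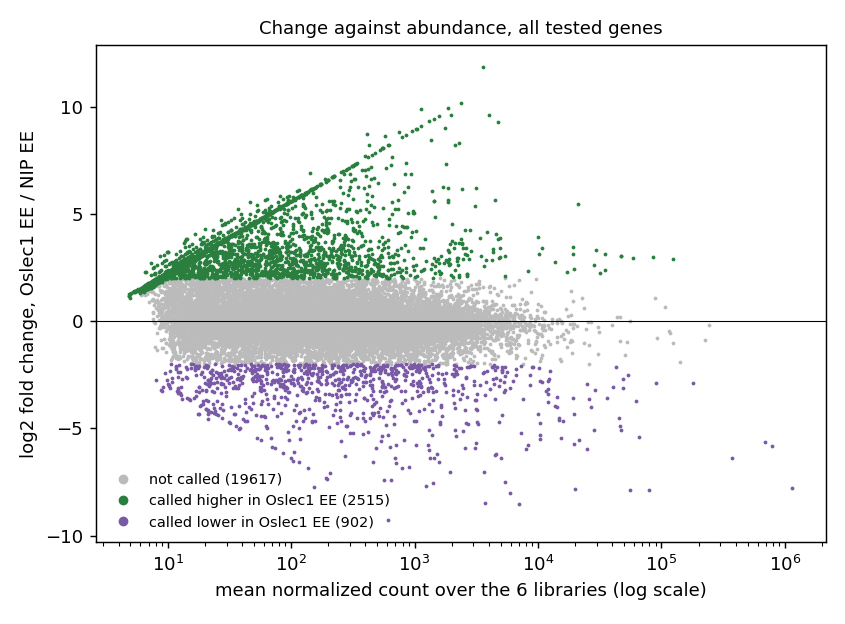
Log2 fold change of Oslec1 EE over NIP EE (vertical axis) against the mean normalized count over the 6 libraries (horizontal axis, log scale), 1 point per tested gene. The 2515 genes called higher (green) lie mostly at low abundance and the genes called lower (purple) reach the highest abundance. Where a group had at most 3 counts in every library its value was set to 3 counts per library, which places some called genes under a log2 fold change of 2.

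Functions were read from GO lists that the study made from genes higher in the mutant at this stage. Their members were chosen on these libraries, so that the numbers called below are no independent evidence of a direction. No list of the genes called lower was used here. Across the 15 lists used, the members tested were called higher with 1 exception, against 10.9% of all genes, and none was called lower. As the members had already passed the limit on the fold change, their medians are to be read beside that of all genes called higher, 2.89 with NIP EE set to 3 counts per library where it was at or under that number. Lists of more than 30 genes could be read only in part, so their medians describe the part read. In the nutrient reservoir list the adjusted p (edgeR) ran roughly upward, from 1.79e-08 for the first gene to 0.00112 for the last read. Such parts may hold the stronger changes of a list. Differences between lists were not tested.

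The photosynthesis genes of the antenna had the highest median change of the 15 lists. All 17 genes of the list for light harvesting, which encode proteins of the chlorophyll-binding antenna, were tested and called higher, with a median log2 fold change of 6.20 where NIP EE was set to 3 counts per library for the 7 members at or under it. Os09g0346500 (chromosome 9, 10845779 to 10847012) had 1997, 2338 and 1770 normalized counts in the Oslec1 EE libraries and 3.57, 4.5 and 1.42 in the NIP EE libraries. Only 7 reads stood behind the NIP EE values, so that the ratio of 640-fold has a 95% counting interval of 311 to 1592. Os06g0320500 (chromosome 6, 12452708 to 12454049) had 1265, 1646 and 1535 normalized counts in Oslec1 EE and 0, 3.0 and 7.08 in NIP EE, a log2 fold change of 8.81 ± 0.33 (SE; edgeR, adjusted p = 3.24e-08). In both genes every Oslec1 EE library stood far above every NIP EE library. At the other end of the list, Os07g0171100 changed least, with a mean of 43.4 normalized counts in Oslec1 EE and 10.6 in NIP EE, a log2 fold change of 2.04. The 17 genes together took 0.0800% to 0.0881% of the counts in Oslec1 EE and 6.24e-04% to 6.65e-04% in NIP EE.

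Outside the antenna, 13 further genes listed under the light reaction could be read from the study's list of 32. As a whole the light reaction moves electrons and protons at the thylakoid membrane, and the part each gene has in it could not be read. Of the 12 tested, 11 were called higher and 1, Os03g0158300, had a log2 fold change of 2.00 that lay just under the limit before rounding. Os01g0501800 (chromosome 1, 17349338 to 17350785) was the most abundant, with 2480, 2709 and 2977 normalized counts in Oslec1 EE and 10.7, 9.0 and 2.83 in NIP EE, a log2 fold change of 8.45 ± 0.22 (SE; edgeR, adjusted p = 7.62e-09). Os01g0773700 (chromosome 1, 32708550 to 32709283) had means of 841 and 10.4 normalized counts in Oslec1 EE and NIP EE, and its log2 fold change was 6.32 ± 0.20. The median of the 12 genes, 3.08, was nevertheless lower than that of the antenna genes. The difference between these medians was not tested. The 15 further genes that could be read of the 63 listed under photosynthesis were all called higher with a median log2 fold change of 5.17. Among them Os07g0141400 (chromosome 7, 2136871 to 2138335) had 1344, 1543 and 1414 normalized counts in Oslec1 EE and 23.8, 51.0 and 39.6 in NIP EE.

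The largest amounts of RNA among the genes called higher belonged to the list for nutrient reservoir activity. The term covers storage proteins, and which members are storage proteins could not be read from the annotation used here. Of the 40 identifiers of the study's list 30 could be read. All 30 were called higher, with a median log2 fold change of 3.25. They took 6.18% to 6.80% of the counts in Oslec1 EE and 0.453% to 0.611% in NIP EE. Of the 20 genes called higher that reached 10000 normalized counts in Oslec1 EE, 13 were in this list. Os01g0762500 (chromosome 1, 32076744 to 32078652) had 228234, 214388 and 219018 normalized counts in Oslec1 EE and 27616, 34458 and 27292 in NIP EE, 7.40-fold higher (log2 fold change 2.89 ± 0.17, SE; edgeR, adjusted p = 4.72e-07). Os10g0400200 (chromosome 10, 13497363 to 13499401) had 157946, 150919 and 146946 normalized counts in Oslec1 EE and 17745, 22470 and 16702 in NIP EE, 8.01-fold higher (log2 fold change 3.0 ± 0.17; edgeR, adjusted p = 3.67e-07). Os01g0762500 overlaps a gene on the opposite strand, Os01g0762400, which had 170.3 to 219 normalized counts in Oslec1 EE and 153 to 248 in NIP EE. On the FPKM scale, which allows genes to be set beside each other, Os01g0762500 and Os10g0400200 averaged 7573 and 4817 in Oslec1 EE, while the most abundant antenna gene averaged 91.9.

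The nutrient reservoir genes had a higher median normalized count in NIP EE than the antenna genes and a narrower interquartile range of change, a description with no test. Their means in NIP EE reached 29789 normalized counts, against at most 39.2 for the antenna genes, and only 3 of the 30 had at most 3 counts in every NIP EE library. A further measure is the spread of the change: 17 of the 30 had a log2 fold change from 2.5 to 3.5. The interquartile range of the log2 fold change was 0.92 for the nutrient reservoir genes and 3.51 for the antenna genes, beside 1.42 for all genes called higher. Some lists described below were narrower still, with 0.85 for inhibitors of serine endopeptidases, 0.85 for oligopeptide transporters, 0.80 for amino acid transporters and 0.31 for IgE binding. The remaining lists were wider. Among the nutrient reservoir genes outside the range from 2.5 to 3.5 was Os09g0568700, with means of 1710 normalized counts in Oslec1 EE and 2.74 in NIP EE. Storage proteins of cereals are chiefly endosperm products. Whether endosperm RNA came with the embryos in different amounts was not tested, because endosperm marker genes could not be matched.

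Genes for inhibitors of serine endopeptidases, small proteins that block digestive enzymes of insects and microbes or of the seed itself, had a median close to that of all genes called higher. Of 17 listed genes 15 were tested and all 15 were called higher, with a median log2 fold change of 2.87. Os01g0124200 (chromosome 1, 1347665 to 1348723) had 53238, 56562 and 47460 normalized counts in Oslec1 EE and 10644, 9456 and 12905 in NIP EE, 4.76-fold higher. Its log2 fold change of 2.25 ± 0.15 (SE; edgeR, adjusted p = 1.40e-06) did not pass a test against a change of 2. Os07g0215500 had means of 23924 and 3508 normalized counts in Oslec1 EE and NIP EE, 6.82-fold higher. The 7 genes annotated to IgE binding, a term for seed proteins that human antibodies recognise as allergens, had log2 fold changes from 2.56 to 3.43, and 5 of them are also in the list of inhibitors and 5 in that of nutrient reservoirs. Os05g0499100 (chromosome 5, 24576939 to 24577725), the most abundant of them, had 66354, 60957 and 61612 normalized counts in Oslec1 EE and 7029, 8144 and 6057 in NIP EE, 8.90-fold higher (log2 fold change 3.15 ± 0.15; edgeR, adjusted p = 1.40e-07). Os07g0214300 had means of 18317 in Oslec1 EE and 2079 in NIP EE.

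**Figure D3:**
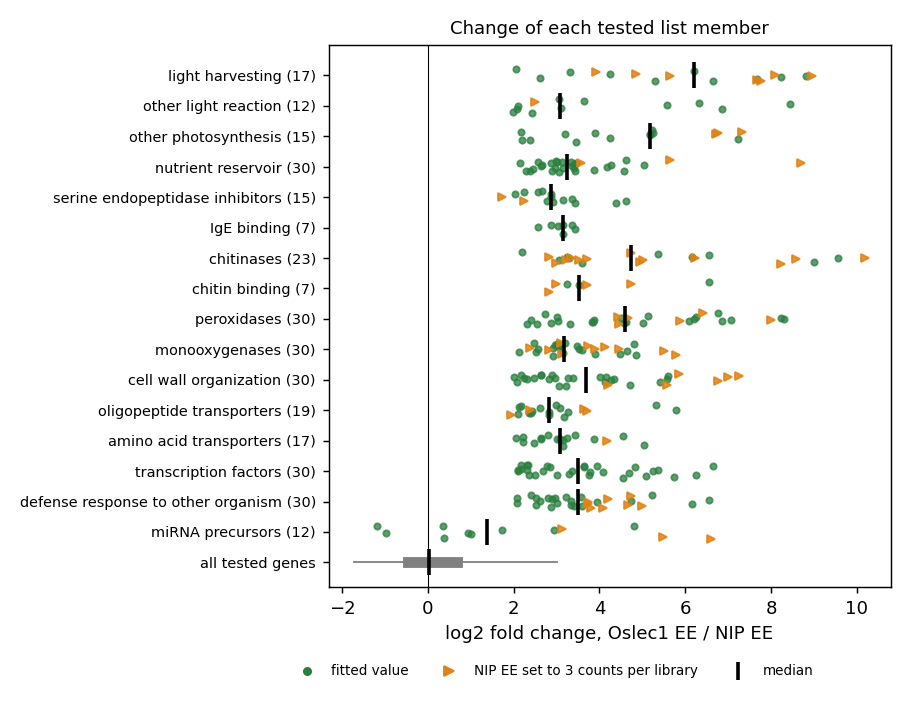
Log2 fold change of Oslec1 EE over NIP EE (horizontal axis) for each tested member of the gene lists (rows, number tested in brackets), with the median as a black bar. Green points are fitted values, and orange triangles mark genes with at most 3 counts in every NIP EE library, computed against 3 counts per library. The bottom row gives all tested genes (thick line, quartiles; thin line, 5th to 95th percentile). Antenna genes reach 8.95 and chitinases 10.2, while the IgE-binding genes lie between 2.56 and 3.43.

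Chitinases, which cleave the chitin of fungal walls and insect cuticles, included several of the strongest changes. Of 26 listed genes 23 were tested and all 23 were called higher, and 13 of these had at most 3 counts in every NIP EE library. The median log2 fold change was 4.75 with those set to 3 counts per library. Os08g0518900 (chromosome 8, 25762457 to 25763823) had 3994, 7683 and 6519 normalized counts in Oslec1 EE and 73.7, 225 and 149 in NIP EE, a log2 fold change of 5.37 ± 0.38 (SE; edgeR, adjusted p = 1.87e-06). Oslec1 EE replicate 1 was the lowest of its group, and the groups did not overlap. Os11g0701100 (chromosome 11, 28730171 to 28731320), also annotated to defense response to other organism, had means of 4456 and 370 normalized counts in Oslec1 EE and NIP EE, 12.1-fold higher. Os11g0701400 had 3607, 5713 and 5043 normalized counts in Oslec1 EE and 3.57, 0 and 0 in NIP EE, where 3 reads were counted in all. Its ratio of 3485-fold has a 95% counting interval of 1193 to 16900. All 7 genes annotated to chitin binding were called higher as well, 6 of them members of the chitinase list. Os06g0726200 had means of 608 and 6.76 normalized counts in Oslec1 EE and NIP EE, and Os03g0133400 had means of 682 and 59.5. Of the 56 genes listed for defense response to other organism, 30 could be read and all were called higher, with a median log2 fold change of 3.49. Os11g0701800 (chromosome 11, 28753859 to 28755033) had the highest mean of these, 4748 ± 769 normalized counts in Oslec1 EE and 66.9 ± 17.0 in NIP EE (SD, n = 3 each).

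Peroxidases use hydrogen peroxide to oxidise phenolic compounds, among them those of the cell wall. All 30 that could be read of the 49 listed were called higher, with a median log2 fold change of 4.59. Os04g0688100 (chromosome 4, 35187443 to 35189187) had 8907, 8528 and 9134 normalized counts in Oslec1 EE and 597, 538 and 749 in NIP EE, 14.1-fold higher. Os07g0676900 (chromosome 7, 28660188 to 28661792) had 6192, 6193 and 6403 in Oslec1 EE and 66.6, 61.5 and 126 in NIP EE, 74.1-fold higher (log2 fold change 6.21 ± 0.23, SE; edgeR, adjusted p = 3.07e-08). The Oslec1 EE libraries hardly differed in this gene. For monooxygenases, enzymes that insert an oxygen atom and include the cytochromes P450, 30 of 62 listed genes could be read and all were called higher, with a median of 3.17. Os10g0171500 had means of 1750 and 117 normalized counts in Oslec1 EE and NIP EE, and Os01g0279100, which is also listed under photosynthesis, had 1096 and 119. The 30 genes read of the 60 listed for cell wall organization were called higher with a median of 3.70. Os11g0539200 (chromosome 11, 19675012 to 19677815) had 8616, 7767 and 7133 normalized counts in Oslec1 EE and 767, 1012 and 738 in NIP EE, 9.35-fold higher, and Os10g0450900 had means of 7284 and 410.

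Transporters of oligopeptides and of amino acids move nitrogen into cells. Of 26 listed oligopeptide transporters 19 were tested and called higher, with the lowest median of these functions, 2.83. Os06g0264500 had 1564, 1046 and 1387 normalized counts in Oslec1 EE and 224, 288 and 242 in NIP EE, 5.32-fold higher. Os02g0695800 had means of 883 and 203, with a log2 fold change of 2.13 ± 0.22 (SE; edgeR, adjusted p = 2.39e-05), and without NIP EE replicate 3 it was 1.92 and no longer called. Of 21 listed amino acid transporters 17 were tested and called higher, with a median of 3.07. Os02g0788800 (chromosome 2, 33511971 to 33517881) had 7447, 5485 and 5958 normalized counts in Oslec1 EE and 472, 477 and 341 in NIP EE, 14.6-fold higher (log2 fold change 3.87 ± 0.17; edgeR, adjusted p = 8.99e-08). Os04g0659800 had means of 1242 in Oslec1 EE and 141 in NIP EE. Os06g0264500, Os02g0695800 and Os04g0659800 overlap genes on the opposite strand. As the counting is not stated to use strand, their reads could not be fully told apart from those of their partners. The partner of Os04g0659800 had 0 counts in every library and that of Os06g0264500 had 0 to 5.08 normalized counts. The partner of Os02g0695800 had 166 to 256.

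Of 123 genes listed as DNA-binding transcription factors, 30 could be read, and all were called higher with a median log2 fold change of 3.5. All 30 had more than 3 counts in at least 1 NIP EE library. Os05g0121600 (chromosome 5, 1156300 to 1159703) stood out by abundance, with 7787, 9220 and 9037 normalized counts in Oslec1 EE and 410, 741 and 385 in NIP EE, 17.0-fold higher (log2 fold change 4.09 ± 0.24, SE; edgeR, adjusted p = 5.38e-07). Os10g0191900 had 1793, 1925 and 1917 normalized counts in Oslec1 EE and 340, 463 and 324 in NIP EE, 5.01-fold higher. Which factors these are could not be read from the annotation used here.

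**Figure D4:**
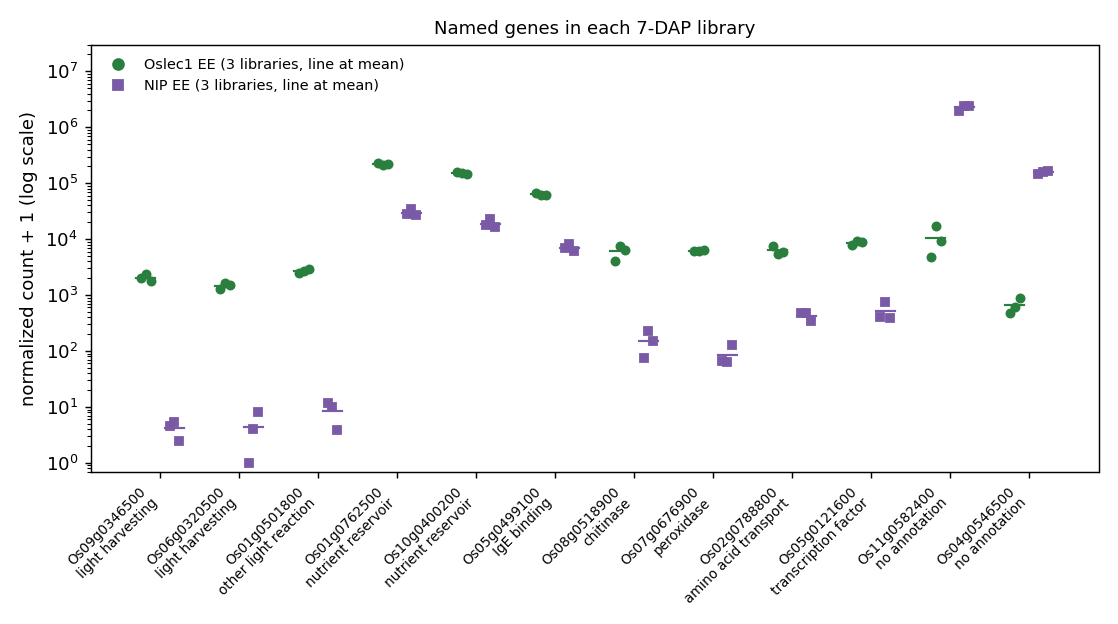
Normalized count plus 1 (vertical axis, log scale) of 12 genes in each 7-DAP library, Oslec1 EE (green circles) left of NIP EE (purple squares), with a line at each mean. The 10 genes on the left, labelled with their list, lie higher in all 3 Oslec1 EE libraries than in any NIP EE library. The 2 genes on the right lie lower, and are marked as without annotation because no list of lower genes was used.

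The 10 largest increases were ranked among called genes whose libraries did not overlap between groups and whose higher group averaged 100 normalized counts or more. Each was 629-fold higher in Oslec1 EE or more, where 3 of the 10 with at most 3 counts in every NIP EE library were set to 3 counts per library. As few reads stood behind the NIP EE values, no order among the 10 is given. A glycosyl hydrolase by its GO terms, Os07g0539100 (chromosome 7, 21223272 to 21225870), had 6215, 7383 and 7815 normalized counts in Oslec1 EE and 0, 6.0 and 0 in NIP EE, where all 4 reads were in replicate 2. The chitinases Os11g0701400 and Os11g0702100 and the glycosyl hydrolase Os02g0765600 were also among the 10. Os11g0702100 had means of 3158 in Oslec1 EE and 4.34 in NIP EE, and Os02g0765600 had a mean of 2634 in Oslec1 EE and 1 read in all in NIP EE, a ratio of 5740-fold with a 95% counting interval of 1030 to 226705. The other 6 were in none of the GO lists as far as these could be read. The most abundant of them were Os03g0115800, with 9075, 9967 and 9383 normalized counts in Oslec1 EE and 10.7, 13.5 and 21.2 in NIP EE, and Os10g0551900, with means of 7961 and 10.3.

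The 10 genes with the largest decrease had log2 fold changes between -9.26 and -7.70 and averaged 306 to 2286770 normalized counts in NIP EE. The GO lists used here were made from genes higher in the mutant, so none of the 10 could be in them, and their functions were not read. Os11g0582400 (chromosome 11, 22012024 to 22013643), the most abundant gene of all, had 4870, 17280 and 9116 normalized counts in Oslec1 EE and 1981900, 2448740 and 2429650 in NIP EE. Its log2 fold change was -7.78 ± 0.54 (SE; edgeR, adjusted p = 1.56e-06), and Oslec1 EE replicate 2 was the highest of its group. Os04g0546500 (chromosome 4, 27362091 to 27362951) had 477, 614 and 882 normalized counts in Oslec1 EE and 145346, 159916 and 165334 in NIP EE, a log2 fold change of -7.90 ± 0.28 (SE; edgeR, adjusted p = 2.71e-08). In FPKM, Os11g0582400 averaged 347 in Oslec1 EE and 45992 in NIP EE, and the NIP EE value was above that of any photosynthesis or nutrient reservoir gene named above.

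Genes called higher lay next to each other on several chromosomes. When the tested nuclear genes were ordered by start position, 10 runs of at least 5 neighbours were called higher and none of that length was called lower, where the longest run had 3 genes. The longest run, of 14 genes, spans 110 kb of chromosome 7 (IRGSP-1.0, 21131097 to 21241263) and holds the glycosyl hydrolases Os07g0538000 and Os07g0539100. Its genes had means of 27.3 to 7138 normalized counts in Oslec1 EE and of 0 to 44.9 in NIP EE, and 7 of the 14 had at most 3 counts in every NIP EE library. A run of 7 genes on chromosome 11 (28722579 to 28748484) holds 6 members of the chitinase list, from Os11g0700900 to Os11g0701500, with a median log2 fold change of 7.19. A run of 5 genes on chromosome 7 (6239015 to 6276753) consists of 5 serine endopeptidase inhibitors, and these moved evenly, with log2 fold changes from 2.56 to 3.14. A run of 5 genes on chromosome 1 (37790484 to 37812129) holds 3 oligopeptide transporters. Neighbours with the same function are often copies of a gene, and how reads that map to several places were counted is not given in the sources used here. Reads shared between near-identical copies would make the value of each single member uncertain. More genes were called higher than lower, 10.9% against 3.92%, which lengthens runs in that direction, and no test of the runs was made. Over whole chromosomes the share of tested genes called higher was between 9.47% on chromosome 3 and 13.2% on chromosome 11.

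**Figure D5:**
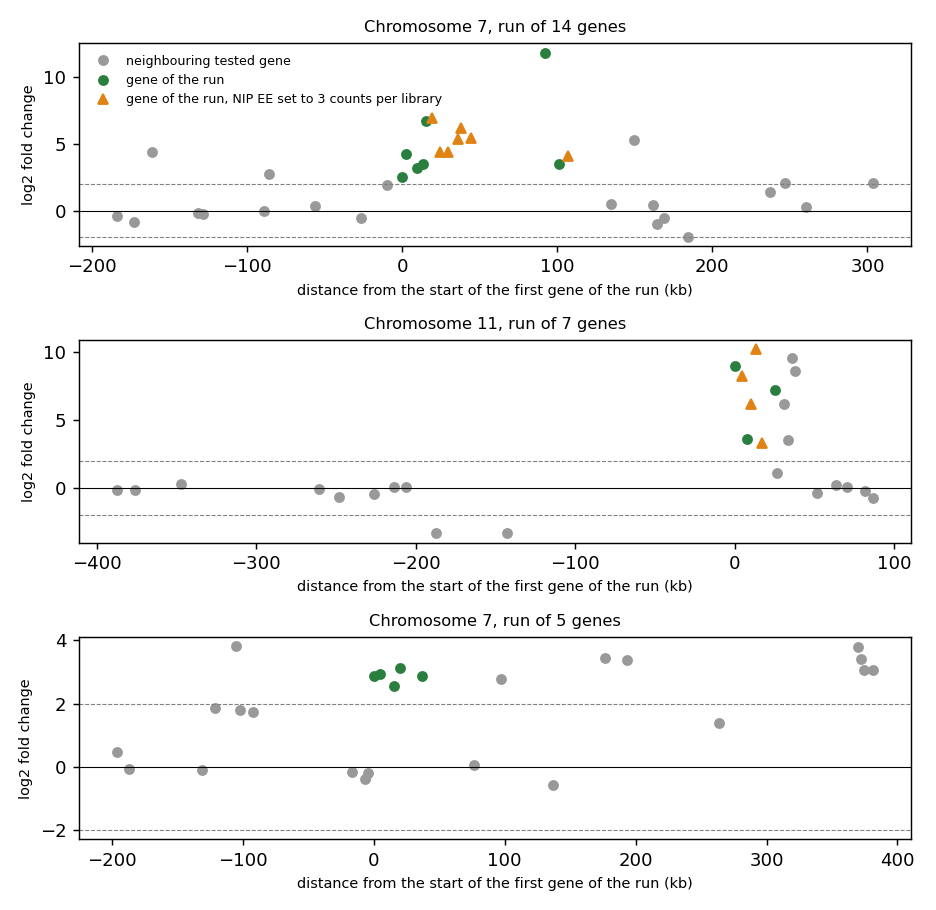
Log2 fold change of Oslec1 EE over NIP EE (vertical axis) against the distance from the start of the first gene of a run (horizontal axis, kb), for 3 runs of neighbouring genes called higher and the 10 tested genes on either side (grey). Green circles are fitted values and orange triangles are genes computed against 3 counts per NIP EE library. The 5 inhibitor genes of the bottom panel lie between 2.56 and 3.14, while the 14 genes of the top panel lie between 2.51 and 11.8, the highest resting on 4 reads in NIP EE, with dashed lines at the limits of 2 and -2.

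The organelle genomes and named RNA genes are groups that the study did not choose. The 127 genes of the plastid genome together received 43, 34 and 42 raw counts in Oslec1 EE and 13, 20 and 14 in NIP EE. These counts are not normalized, and the TMM-scaled size of the Oslec1 EE libraries was the larger. The libraries are of polyadenylated RNA, and how much organelle RNA they capture was not tested. The low counts are therefore not read as a level of plastid expression. Of the plastid genes 1 passed the filter on low counts, gene-psaC, which encodes the iron-sulfur subunit of photosystem I. It gave 16, 16 and 22 of the raw counts in Oslec1 EE and 5, 3 and 0 in NIP EE, and the other plastid genes were not tested. In normalized counts gene-psaC had 11.6, 14 and 17.3 in Oslec1 EE and 5.95, 4.5 and 0 in NIP EE. Its log2 fold change was 1.96 ± 0.63 (SE; edgeR, adjusted p = 0.0230) and thus just under the limit. The gene passed the filter through Oslec1 EE alone and could hardly have come out lower. Its value is therefore not read as a result about the plastid genome. Of the 95 genes of the mitochondrial genome 2 were tested and neither was called. The cytochrome b gene, gene-cob, had means of 8.54 and 19.4 normalized counts in Oslec1 EE and NIP EE with a log2 fold change of -1.18 ± 0.64 (edgeR, adjusted p = 0.140). The ribosomal RNA gene rrn26 had means of 13.2 and 14.8 (log2 fold change -0.19 ± 0.46; edgeR, adjusted p = 0.754), a direction that turned with scaling by library size.

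Of 97 precursor genes of microRNAs, 12 were tested, 5 were called higher and none was called lower, where 10.9% of all tested genes were called higher. The filter keeps a gene with enough counts in 3 libraries, so that precursors absent from NIP EE entered through Oslec1 EE alone. Such members could only be called higher, and 5 of 12 is not read as a result about the group. A total of 3 of the 5 are MIR1428 precursors, on chromosomes 7, 1 and 5, which had 0 counts in every NIP EE library. The precursor on chromosome 7 (5451322 to 5451445) had 514, 523 and 166 normalized counts in Oslec1 EE and was at least 97.6-fold higher, and that on chromosome 1 (13160777 to 13160900) had 200, 132 and 215 and was at least 44.5-fold higher, both against 3 counts per NIP EE library. The other tested MIR1428 precursor, on chromosome 3, lies within another gene on the same strand and had a log2 fold change of 0.38. MIR529, whose product targets SPL transcription factors in rice, had 84.3, 55.2 and 94.6 normalized counts in Oslec1 EE and 4.76, 0 and 2.83 in NIP EE, and 1 of the mir-166 precursors, a family that targets HD-ZIP III factors, had 56.7, 18.4 and 20.5 in Oslec1 EE and 4.76, 6.0 and 1.42 in NIP EE. The other 2 mir-166 precursors had log2 fold changes of 1.02 and -0.99 and were not called. The copies of a family resemble each other, so that values of single precursors are uncertain, and long precursors rather than mature microRNAs were measured.

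The libraries at 25 DAP were not used to make the lists, although they come from the same mutant and carry other library codes, so that stage and library code cannot be told apart. There, 8.71% of the 24903 genes tested were called higher and 1.37% lower in Oslec1 LE against NIP LE. Of the 2515 genes called higher at 7 DAP, 1206 were called higher at 25 DAP, among the 2169 called higher there, and 10 were called lower. Of the 902 genes called lower at 7 DAP, 161 were called lower at 25 DAP, among the 340 called lower there, and 11 were called higher. The median log2 fold change of these 902 genes at 25 DAP was -0.97. The list members all come from genes higher at 7 DAP, so that 1206 of 2515 is the nearer number to read them against. Of the same lists, 15 of 17 light-harvesting genes, 10 of 13 other light reaction genes, 13 of 15 other photosynthesis genes, 21 of 30 nutrient reservoir genes, 13 of 16 inhibitors and all 7 IgE-binding genes were called higher. The numbers were 19 of 30 for peroxidases, 18 of 30 for monooxygenases, 15 of 26 for chitinases, 4 of 7 for chitin binding, 16 of 30 for transcription factors and 14 of 30 for defense response. They were lowest for oligopeptide transporters with 10 of 23, cell wall organization with 12 of 30 and amino acid transporters with 7 of 18. Peroxidases, transcription factors and cell wall organization each had 1 gene called lower. Among the groups the study did not choose, 7 of 14 mitochondrial genes tested at 25 DAP were called lower and 0 higher. Counts there were low, with 0.287 to 1.75 CPM in Oslec1 LE and 2.55 to 5.62 in NIP LE for gene-cob. Of 14 microRNA precursors 5 were called higher and 1 lower, and the 1 plastid gene tested was not called. No difference between lists was tested. Whether the mutant effect differed between the ages was tested as an interaction in edgeR on all 12 libraries, where 33.4% of all genes had an adjusted p under 0.05. Of the 34 named genes with more than 3 counts in at least 1 library of every group, 21 passed. The named genes were chosen partly for the size of their change at 7 DAP, so that a larger change at that age partly follows from the choice, and neither the number that passed nor its direction is read as a result about them. The nutrient reservoir genes Os01g0762500 and Os10g0400200 were not among them, with log2 fold changes of 2.65 and 2.29 at 25 DAP (edgeR, adjusted p of the difference 0.856 and 0.503). Their Oslec1 LE libraries spread widely, from 13.5 to 188 CPM for Os01g0762500.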

How the data were processed

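RNA-seq of polyadenylated RNA was read from a table of raw counts per gene, deposited by the authors for 12 libraries. Per the labels and the methods of the study, reads were trimmed with Trimmomatic 0.36 and mapped to IRGSP-1.0 with HISAT2 2.1.0; the counting program, its use of strand and its treatment of multiply mapped reads are not given in the sources used here. FPKM values per gene were deposited by the authors, in the format of StringTie 1.3.4d, and served for levels compared between genes and for alternatives with limma 3.58.1.

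The 3 Oslec1 EE and 3 NIP EE libraries were set against each other in edgeR 4.0.16 (R 4.3.3, quasi-likelihood) after the filterByExpr filter and TMM, leaving 23034 of 38978 genes, and p-values were adjusted by the Benjamini-Hochberg method. Genes were called at an adjusted p under 0.05 and a log2 fold change of at least 2 in size. The SE was derived from the F statistic. A group with at most 3 counts in every library was set to 3 counts per library for medians, ranges and bounds. Gene coordinates are those of the deposited files. Shares carry Wilson intervals (95%), ratios of low counts exact counting intervals, and both cover counting error only; an absent gene allows up to 3 counts per library. Per-sample columns not used numbered 0.

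Named genes were the 10 largest increases and decreases among called genes without overlap whose higher group averaged 100 normalized counts or more, and the 2 most abundant members of each list; of unannotated ones only 2 per direction are named. Others, such as the members with the smallest change, run members and further microRNA precursors, were chosen after their values were seen. No descriptions were at hand, so GO lists of the study replaced lists of annotated genes, up to 30 identifiers each. Members and lists were chosen with earlier results of these data known. The 25-DAP list counts, from a fit of 12 libraries (24903 genes), were added after seeing the data. Replicate numbers were not treated as pairs in the main fit. Alternatives were DESeq2 1.42.0, other scalings, filters and limits, a replicate block, all 12 libraries, limma on log2(FPKM + 1) or log2(FPKM + 0.1), and leaving out each library.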

Additional observations from a re-analysis of the deposited data

Results flagged for a closer look

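For 21 of the 34 named genes compared, the effect of the mutation differed between 7 and 25 DAP in the edgeR interaction test on 12 libraries (Benjamini-Hochberg adjusted p under 0.05, which 33.4% of all genes passed). The values below are the log2 fold change of Oslec1 over NIP at 7 DAP minus that at 25 DAP. The ages also differ in library code, so that age and library code cannot be told apart. The named genes were chosen partly for the size of their change at 7 DAP, so that larger changes at 7 DAP partly follow from the choice.

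Among the genes with the largest increases, the difference was 5.91 for the glycosyl hydrolase Os07g0539100, which had 4 reads in NIP EE, 6.63 for the chitinase Os11g0702100, 4.31 for Os10g0551900 and 2.35 for Os03g0115800. For the genes with the largest decreases it was -6.09 for Os04g0546500 and -6.95 for Os11g0582400. Os11g0582400 stood at 280 to 1002 CPM in Oslec1 EE and 114493 to 139955 CPM in NIP EE, and at 958 to 1389 CPM in Oslec1 LE and 1861 to 2369 CPM in NIP LE.

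For chitinases and defence the differences were 2.29 for Os08g0518900, 1.72 for Os03g0133400, 4.56 for Os06g0726200 and 3.57 for Os11g0701800. Os11g0701100 was the exception, with -1.69, a larger increase at 25 DAP. For peroxidases and monooxygenases they were 1.70 for Os07g0676900, 3.62 for Os10g0171500 and 0.59 for Os01g0279100, and for cell wall organization 1.75 for Os11g0539200 and 2.61 for Os10g0450900.

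The transporters differed by 2.07 for Os06g0264500, 1.21 for Os02g0695800, 4.21 for Os02g0788800 and 1.73 for Os04g0659800, and the transcription factor Os05g0121600 by 3.5. Os02g0788800 was the only one of the 21 whose fold change had the opposite sign at 25 DAP, with a log2 fold change of -0.34 there (edgeR, adjusted p = 0.0763).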

How the results depend on the processing

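The main numbers were 2515 genes called higher and 902 called lower. Leaving out 1 library at a time gave 2509 to 2904 higher and 886 to 1009 lower, DESeq2 gave 2529 and 901, and the replicate block gave 2520 and 905. Same-numbered libraries correlated at 0.105, -0.012 and -0.0555 in their deviations, and libraries of different number at -0.0770 to 0.0775. Only the pair numbered 1 correlated best with its own number. The numbers were not treated as pairs in the main fit, though so few pairs cannot exclude a weak pairing. Stricter or other settings moved the numbers more. With glmTreat, which sets the change against 2 on the log2 scale, there were 1520 higher and 523 lower genes. Library size only gave 528 lower. Requiring 10 counts in every library gave 742 higher and 612 lower, since that filter takes out genes with few counts in any library of either group. limma on log2(FPKM + 1) gave 1616 higher and 323 lower, with and without its filter, and log2(FPKM + 0.1) gave 522 lower. No called gene was called in the other direction under the alternatives on counts, and 1 was under log2(FPKM + 0.1). The share of the 50 most abundant genes in Oslec1 EE was 21.2% of FPKM, against 19.1% of counts.

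The direction of the mitochondrial rrn26 (EPlORYSAT000373608, -0.19) turned to 0.49 with library size only, 0.21 with log2(FPKM + 0.1), 0.19 with log2(FPKM + 1) in both forms, and over leave-one-out fits it lay between -0.45 and 0.13. With library size only, the difference between 7 and 25 DAP turned to 0.069 for Os07g0141400, 0.41 for Os07g0215500 and 0.20 for Os04g0688100, none of which passed the threshold with TMM. The gene gene-psaC (1.96) passed the limits with DESeq2 (2.01), library size only (2.61), log2(FPKM + 0.1) (2.80), without NIP EE replicate 1 (2.63) and without Oslec1 EE replicate 1 (2.09). For the other changes the cause was not tested. Genes with few counts in NIP EE are limited by depth.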
